A study of Mus musculus with 6 samples.

Results

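The Foxa forkhead family was described in mouse tailbuds as the 3 genes Foxa1, Foxa2 and Foxa3, taken by symbol from 37310 gene identifiers in the deposited count files. All 3 were found, and all 3 passed the filter on low counts that left 15471 genes for testing. Tailbuds were collected at embryonic day 9.5 (E9.5) from homozygous Danforth's short tail embryos (Sd/Sd, 3 libraries) and from wild-type embryos (WT, 3 libraries), both on the outbred CD-1 background. Danforth's short tail, a semidominant mutation with shortened tail and spine, lies close to Ptf1a, a transcription factor gene. The cut lay at the level of the last somite. Some libraries hold the tailbuds of 2 mice, and which ones is not stated. Separate litters are not stated either, so each p-value reflects the spread among these 6 libraries, which may be technical.

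Foxa proteins are winged-helix transcription factors that bind nucleosomal DNA and open chromatin for other factors. Foxa2 is required for the node, the notochord and the floor plate of the neural tube, and Foxa1 and Foxa2 act together in gut endoderm. Foxa3 is mainly a gene of gut endoderm and liver. In notochord and floor plate, Foxa2 and the hedgehog ligand gene Shh regulate each other, which makes the family a companion readout in a study of hedgehog signalling.

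The 3 genes lie on different chromosomes, Foxa1 on 12, Foxa2 on 2 and Foxa3 on 7; Ptf1a is also on chromosome 2. Their coding regions share short identical runs, and the one common to all 3 is shown because such runs decide whether a read can be told apart between family members. Between the longest coding transcript of Foxa3 and that of each other member (GENCODE M21 on GRCm38) the longest run is 20 bases, starting at base 563 of the Foxa3 transcript. Between the longest coding transcripts of Foxa1 and Foxa2 the longest run is 38 bases. No stretch of 50 bases was identical between any pair of these transcripts.
Foxa1, Foxa2 and Foxa3 shared coding run: tggatcatggacctcttccc

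The promoters of the 3 genes are shown because the levels of all 3 were lower in Sd/Sd. RefSeq sequences on GRCm38.p6 were read from 250 to 21 bases before the annotated start, and for Foxa2 the farthest upstream of 3 starts was taken. Capitals mark matches, on either strand, to the forkhead core (the letters TGTTTAC, the letters TGTTTGC, the letters TGTTTAT or the letters TGTTTGT), a Gli site (GACCACCCA), a T-box half-site (AGGTGTGA) or a TATA box (TATAAA).
Foxa1 promoter, chr12:57546132-57546361, minus strand: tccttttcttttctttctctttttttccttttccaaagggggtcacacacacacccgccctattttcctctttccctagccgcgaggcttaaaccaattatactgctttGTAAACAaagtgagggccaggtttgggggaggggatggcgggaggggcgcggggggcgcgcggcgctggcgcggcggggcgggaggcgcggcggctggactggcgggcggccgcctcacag
Foxa2 promoter, chr2:148046990-148047219, minus strand: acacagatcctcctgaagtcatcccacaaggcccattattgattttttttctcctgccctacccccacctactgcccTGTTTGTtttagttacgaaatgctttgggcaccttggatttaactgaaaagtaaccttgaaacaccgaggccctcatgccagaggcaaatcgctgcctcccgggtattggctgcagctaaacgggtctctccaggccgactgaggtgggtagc
Foxa3 promoter, chr7:19023560-19023789, minus strand: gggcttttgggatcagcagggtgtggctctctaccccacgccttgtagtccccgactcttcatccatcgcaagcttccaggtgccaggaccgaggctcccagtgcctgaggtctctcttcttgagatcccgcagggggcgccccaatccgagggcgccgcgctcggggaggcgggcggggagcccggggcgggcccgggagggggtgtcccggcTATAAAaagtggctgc
The Foxa1 window holds a forkhead core on the opposite strand (TGTTTAC, which reads GTAAACA here), the Foxa2 window holds TGTTTGT, and the Foxa3 window holds a TATA box that begins 36 bases before the start. No matches overlapped. Of 32851 promoter windows of 230 bases in the same table, 14.7% hold a forkhead core, 11.8% a TATA box, 0.219% the Gli site and 1.03% the T-box half-site. The windows of the other 2 Foxa2 starts hold no forkhead core, Gli or T-box letters, and the third holds TATAAA on the opposite strand. A match in these windows is a description of the letters and not a binding site.

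The libraries held 41788978 to 62296689 counts, with 18761 to 19480 genes detected in each. The unit of level, CPM, is a count scaled by library size and TMM factor. The check of the mutation matched the labels in every library: Ptf1a stood at 13.8 to 20.6 CPM in the Sd/Sd libraries, against 0.0237 to 0.0948 CPM in the WT libraries. For somite genes Sd/Sd replicate 3 lay far from the other libraries, with a mean centred log2 CPM of -1.95 over the somite and presomitic list, against 0.73 and 0.81 in the other Sd/Sd libraries and -0.40 to 0.48 in WT. The tailbud labels were matched by T and Tbx6, genes of tailbud and presomitic mesoderm, at 141 ± 63.2 and 84.9 ± 22.9 CPM in Sd/Sd and 160 ± 21.1 and 74.3 ± 10.8 CPM in WT (SD, n = 3 each).

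All 3 Foxa genes were lower in Sd/Sd tailbuds than in WT tailbuds, by 1.90 to 2.43 times, with every Sd/Sd library below every WT library for each gene. None of the 3 passed the test across all genes (edgeR quasi-likelihood test, Benjamini-Hochberg adjusted p under 0.05), and Foxa1 passed with DESeq2. In bulk tailbuds, fewer cells of a type that expresses a gene and less RNA per cell cannot be told apart.

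Foxa1 (ENSMUSG00000035451.6), the factor of gut epithelium and floor plate, had 6.99, 6.44 and 3.20 CPM in Sd/Sd replicates 1 to 3, against 14.2, 11.3 and 14.8 CPM in WT replicates 1 to 3. The groups did not overlap, and Sd/Sd replicate 3 lay well below both other mutant libraries. Foxa1 averaged 5.54 ± 2.04 CPM in Sd/Sd and 13.5 ± 1.88 CPM in WT (SD, n = 3 each), a 2.43-fold lower level. The log2 fold change was -1.28 (SE 0.28, 95% interval -1.93 to -0.63, adjusted p = 0.755 in edgeR), which was the 37th smallest p of the 15471 genes tested. DESeq2 called Foxa1 lower (log2 fold change -1.28, adjusted p = 8.21e-04), whereas limma-voom did not (adjusted p = 0.561).

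Foxa2 (ENSMUSG00000037025.5), the factor of node, notochord, floor plate and endoderm, had 5.87, 3.31 and 3.59 CPM in Sd/Sd replicates 1 to 3, against 8.51, 7.70 and 7.96 CPM in WT replicates 1 to 3. The WT libraries were close together, and Sd/Sd replicate 1 was the mutant library nearest to them. Foxa2 averaged 4.26 ± 1.41 CPM in Sd/Sd and 8.06 ± 0.416 CPM in WT (SD, n = 3 each), a 1.90-fold lower level. The log2 fold change was -0.92 (SE 0.23, 95% interval -1.45 to -0.40, adjusted p = 0.930 in edgeR), the 51st smallest p. DESeq2 placed Foxa2 just outside the threshold (adjusted p = 0.0542), and limma-voom did not call it (adjusted p = 0.595).

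Foxa3 (ENSMUSG00000040891.5), the gut and liver member, had 0.655, 0.415 and 0.918 CPM in Sd/Sd replicates 1 to 3, against 1.55, 1.02 and 2.08 CPM in WT replicates 1 to 3. These levels rest on 27, 26 and 45 counts in Sd/Sd and on 82, 54 and 88 counts in WT. The groups did not overlap, but the nearest pair were within counting error: Sd/Sd replicate 3 had a 95% exact Poisson interval of 0.670 to 1.23 CPM and WT replicate 2 one of 0.768 to 1.33 CPM. Counting error is all that these intervals cover. They may be too narrow even for that, because reads lacking molecular identifiers may be copies of one molecule. Foxa3 averaged 0.663 ± 0.251 CPM in Sd/Sd and 1.55 ± 0.531 CPM in WT (SD, n = 3 each), a 2.35-fold lower level. The log2 fold change was -1.23 (SE 0.40, 95% interval -2.13 to -0.33, adjusted p = 1.00 in edgeR), the 144th smallest p, and neither DESeq2 (adjusted p = 0.903) nor limma-voom (adjusted p = 1.00) called it.

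**Figure D1:**
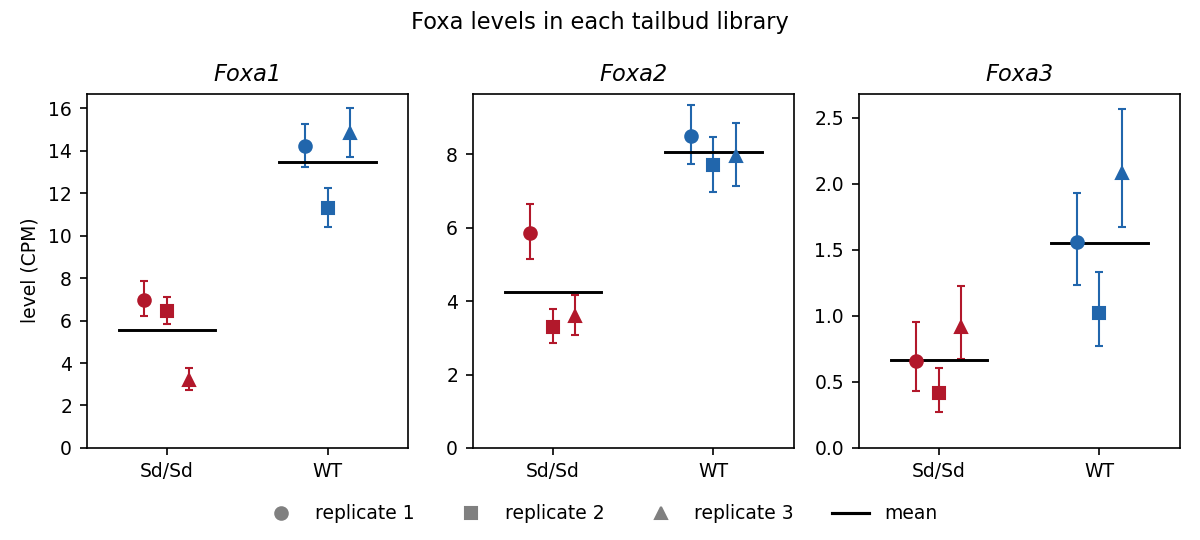
Level of each Foxa gene in CPM (vertical axes, from 0) in 3 Sd/Sd and 3 WT tailbud libraries; symbols mark the replicate, thin bars the 95% exact Poisson interval of the count, and black lines the group mean. Every Sd/Sd library lies below every WT library, with the smallest gap for Foxa3 (0.918 CPM in Sd/Sd replicate 3 and 1.02 CPM in WT replicate 2).

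Against the whole transcriptome, calls were rare and separated groups were not. edgeR called 9 of 15471 genes, 0.0582%, of which 3, or 0.0194%, were lower in Sd/Sd; 0 of 3 Foxa genes were among them. DESeq2 called 15 genes lower, 0.0989% of the 15166 to which it gave an adjusted p, and 1 of 3 Foxa genes. At an unadjusted p under 0.05 in edgeR, 302 genes were lower, 1.95% of those tested, and all 3 Foxa genes were among them. At that level 146 genes were higher. A negative log2 fold change was held by 50.1% of all genes tested. All 3 Sd/Sd libraries lay below all 3 WT libraries for 684 genes, 4.42% of those tested, and for all 3 Foxa genes. The median log2 fold change was -1.23 over the 3 Foxa genes and 0.00 over all genes tested. With 3 libraries a group, the smallest 2-sided p of an exact permutation test is 0.1, so calls on single genes come from the fit over all genes.

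The size of the difference moved more with the library left out than with the method used. Over the 6 fits that each left out 1 library, the log2 fold change ranged from -1.47 to -1.004 for Foxa1, from -1.22 to -0.77 for Foxa2 and from -1.55 to -0.96 for Foxa3. Foxa1 was nearest to 0 without Sd/Sd replicate 3 (-1.004, adjusted p = 0.170 in edgeR), its lowest library and the one that stands apart in somite genes. Foxa2 was nearest to 0 without Sd/Sd replicate 2 (-0.77, adjusted p = 0.802 in edgeR), and Foxa3 without WT replicate 3 (-0.96, adjusted p = 1.00 in edgeR). Across 39 refits of the 3 genes the direction was the same in 39 and past the threshold in 1, that of Foxa1 with DESeq2.

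**Figure D2:**
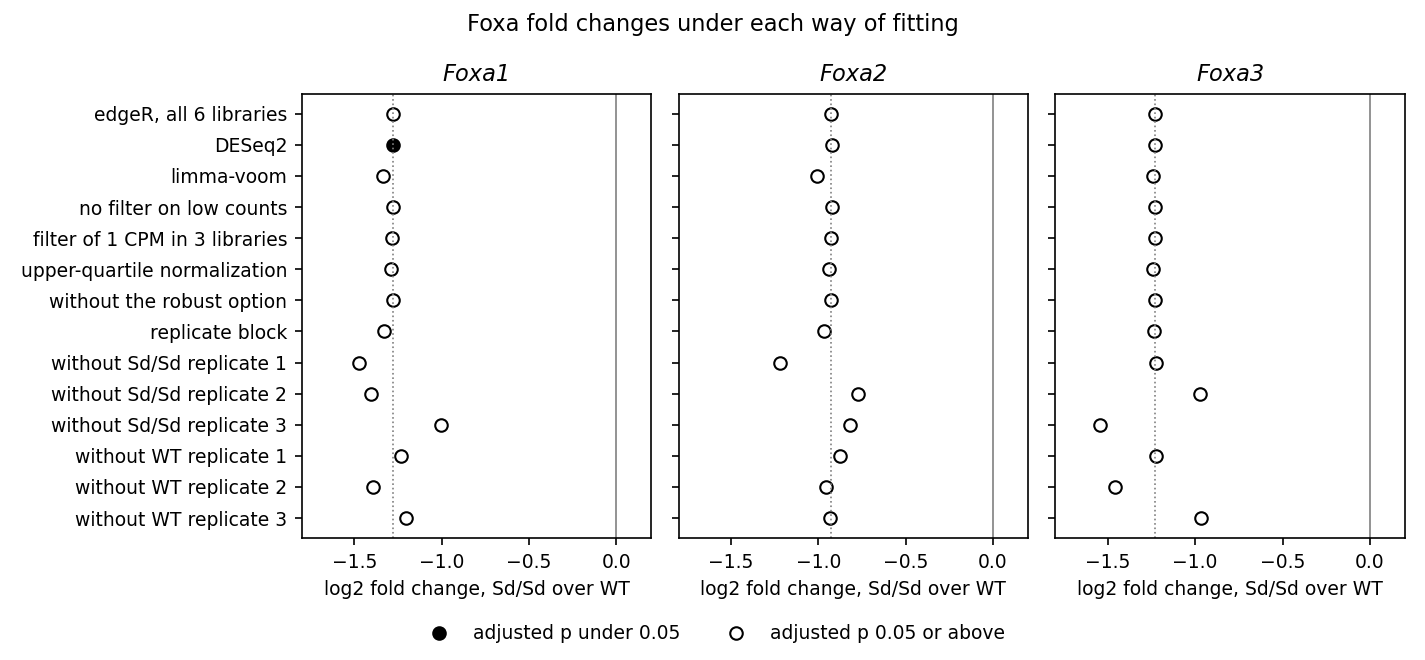
Log2 fold change of Foxa1, Foxa2 and Foxa3, Sd/Sd over WT (horizontal axes), in the fit to all 6 libraries and in 13 alternatives (rows); filled points have an adjusted p under 0.05, dotted lines mark the first row and solid lines 0. All points lie below 0 and 1 is filled, Foxa1 with DESeq2.

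Within the family, the order of levels was compared per kilobase of exon (GENCODE M21 lengths of 3.33, 2.37 and 2.04 kb for Foxa1, Foxa2 and Foxa3). In Sd/Sd the levels were 1.67 ± 0.615 CPM per kb for Foxa1, 1.80 ± 0.593 for Foxa2 and 0.325 ± 0.123 for Foxa3 (SD, n = 3). In WT the levels were 4.04 ± 0.564 CPM per kb for Foxa1, 3.40 ± 0.175 for Foxa2 and 0.763 ± 0.261 for Foxa3 (SD, n = 3). The libraries of Foxa1 and Foxa2 overlapped in both genotypes, although Foxa1 was the higher of the pair in each WT library, and Foxa3 lay below both in every library.

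The 3 members did not keep the same order of libraries within Sd/Sd. Foxa1 was lowest in Sd/Sd replicate 3, whereas Foxa2 and Foxa3 were lowest in replicate 2 and Foxa3 was highest in replicate 3. Ratios within a library, not per length, were formed after 0.1 CPM was added to the level of each gene. The ratio of Foxa1 to Foxa2 was 1.19, 1.92 and 0.895 in Sd/Sd replicates 1 to 3, against 1.66, 1.46 and 1.85 in WT replicates 1 to 3. The groups overlapped, and the mean log2 ratio was 0.34 ± 0.56 in Sd/Sd and 0.72 ± 0.17 in WT (SD, n = 3 each; difference -0.38, exact 2-sided permutation p = 0.4). That difference was -0.13 without Sd/Sd replicate 3 and -0.68 without Sd/Sd replicate 2. Formed in the same way, the ratio of Foxa3 to Foxa1 was 0.107, 0.0788 and 0.308 in Sd/Sd, against 0.116, 0.0983 and 0.146 in WT. Its mean log2 value was -2.86 ± 1.03 in Sd/Sd and -3.08 ± 0.29 in WT (SD, n = 3 each; difference 0.21, exact 2-sided permutation p = 0.9), and the difference was -0.37 without Sd/Sd replicate 3. With 1 CPM added in place of 0.1 CPM, the Foxa3 to Foxa1 difference was 0.58 (exact 2-sided permutation p = 0.2), so its size depends on the amount added. With 3 libraries a group, none of these tests could have given a p under 0.05, and the ratio of Foxa2 to Foxa3 was not tested.

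Genes next to the Foxa genes were looked at for changes along the chromosome. The long noncoding gene 9030622O22Rik, which follows Foxa2, had 0.276 ± 0.0597 CPM in Sd/Sd and 0.404 ± 0.134 CPM in WT (log2 fold change -0.56, SE 0.45, adjusted p = 1.00 in edgeR). Ttc6, next to Foxa1, had 0.701 ± 0.280 CPM in Sd/Sd and 1.13 ± 0.307 CPM in WT (log2 fold change -0.67, SE 0.38, adjusted p = 1.00 in edgeR). Around Foxa3, Irf2bp1, Mypop and Sympk had log2 fold changes of -0.04, -0.04 and 0.04. For these 5 neighbours the libraries of the 2 groups overlapped, as they did for most genes tested, and those of the Foxa genes did not. Of 15471 genes tested, 684 (4.42%) had all Sd/Sd libraries below all WT libraries, and 504 had all above. Counts per library were low for 9030622O22Rik (13 to 29) and Ttc6 (21 to 64). The other listed neighbour of Foxa1, 4921518K17Rik, had 0 counts in every library.

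The files list 43 forkhead genes, of which 30 were tested and 27 of those are outside the Foxa family; the X-linked Foxo4, Foxp3 and Foxr2 had 0 counts in every library. Of these 27, 0 passed in edgeR, DESeq2 or limma-voom, 15 had a negative log2 fold change and 12 a positive one, and their median was -0.01 (-0.12 without Sd/Sd replicate 1 and 0.06 without Sd/Sd replicate 3). At an unadjusted p under 0.05 in edgeR, 4 were lower and 0 higher, where 1.95% of all genes tested were lower. The same number, 4, had all Sd/Sd libraries below all WT libraries, which held for 4.42% of all genes tested. Foxe1, known from thyroid and pharyngeal endoderm, averaged 0.724 ± 0.218 CPM in Sd/Sd and 1.65 ± 0.349 CPM in WT (log2 fold change -1.20, SE 0.34, adjusted p = 1.00 in edgeR). Foxf2, a gene of gut mesenchyme that hedgehog signalling induces, averaged 12.2 ± 3.16 CPM in Sd/Sd and 18.1 ± 2.26 CPM in WT (log2 fold change -0.58, SE 0.19, adjusted p = 1.00 in edgeR). Foxo6 and Foxq1 had log2 fold changes of -0.83 and -0.73. Whether the Foxa genes as a set differ from the other forkhead genes was not tested.

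**Figure D3:**
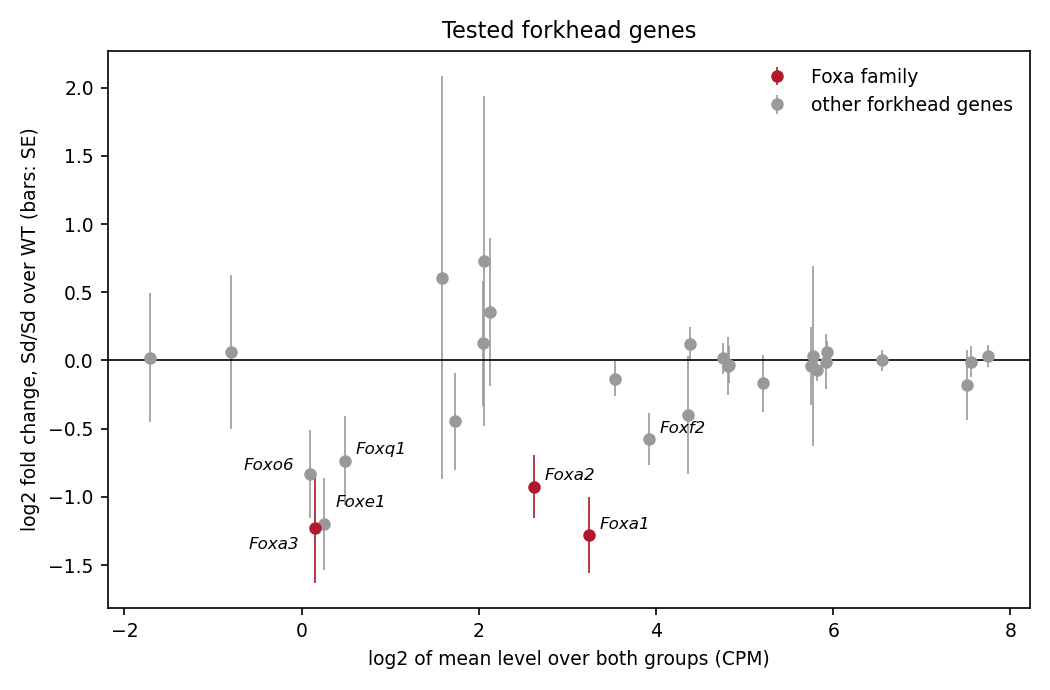
Log2 fold change of the 30 tested forkhead genes, Sd/Sd over WT (vertical axis, bars are SE), against the log2 of their mean level over both groups in CPM (horizontal axis); Foxa genes are red and genes with an unadjusted p under 0.05 are named. Foxa1 (-1.28), Foxa3 (-1.23) and Foxe1 (-1.20) have the most negative values. The 27 genes outside the Foxa family, Foxe1 among them, have a median of -0.01.

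Genes whose pattern over the 6 libraries was most like that of a Foxa gene were found by the root mean square (RMS) difference of centred log2 CPM over 12834 other genes with a mean of at least 1 CPM. For Foxa1 the nearest was Shh, the Sonic hedgehog gene (RMS difference 0.24), followed by Crb3, an apical polarity gene of epithelia (0.26), Depp1 (0.31), Slc8a3 (0.32) and Entpd3 (0.32). For Foxa2 the nearest was Fgd2 (0.066), followed by Galnt3, an O-glycosylation enzyme gene (0.13), Syt17 (0.17), Pdzk1, which encodes a scaffold of epithelial transporters (0.18), and Gpx2, the gastrointestinal glutathione peroxidase gene (0.20). For Foxa3 they were Timp4 (0.30), Tmprss2, an epithelial serine protease gene (0.31), B4galnt2 (0.33), the carboxypeptidase M gene Cpm (0.35) and F2rl1 (0.36). The rule picks genes with a like difference between groups, so their fold changes are no separate evidence, and with 6 libraries many genes lie close by.

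Among one another the Foxa genes were less close. Foxa2 was the 13th nearest gene to Foxa1 (0.39), and Foxa3 the 690th (0.65). Seen from Foxa2, Foxa1 ranked 176th at the same RMS difference, and Foxa3 678th (0.47). Seen from Foxa3, whose lower counts add error to its profile, Foxa2 ranked 43rd (0.47) and Foxa1 976th. Fgd2, which encodes an exchange factor for the small GTPase Cdc42, had 3.69, 1.98 and 2.22 CPM in Sd/Sd replicates 1 to 3, against 5.90, 5.01 and 5.28 CPM in WT replicates 1 to 3, so that the first Sd/Sd library was the highest of the mutants for both Fgd2 and Foxa2. The log2 fold change of Fgd2 was -1.04 (SE 0.26, adjusted p = 0.920 in edgeR).

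Shh had 6.74, 5.09 and 4.30 CPM in Sd/Sd replicates 1 to 3, against 15.5, 13.4 and 16.5 CPM in WT replicates 1 to 3. Its order of libraries was that of Foxa1 in both groups. Shh fell in Sd/Sd (log2 fold change -1.49, SE 0.18, adjusted p = 0.0438 in edgeR), and the call was lost whichever library was left out (adjusted p = 0.0615 to 0.263). Noto, a homeobox gene of the node and posterior notochord, had 2.23, 0.144 and 1.71 CPM in Sd/Sd, against 8.04, 8.53 and 11.1 CPM in WT; its lowest library was Sd/Sd replicate 2, as for Foxa2 and Foxa3. The edgeR adjusted p of Noto was 1.00 (log2 fold change -2.79, SE 0.86) in the fit to 6 libraries and 0.0247 (log2 fold change -2.23) without Sd/Sd replicate 2. The groups overlapped for T, whose log2 fold change was -0.18 (SE 0.37, adjusted p = 1.00 in edgeR).

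Tissues in which Foxa genes are active were described from lists that leave the Foxa genes out. Of 22 tested hindgut endoderm genes 2 fell, Shh and the Indian hedgehog gene Ihh, and 18 had log2 fold changes below 0, with a list median of -0.36. Their summed level was 536 to 734 CPM in Sd/Sd, against 675 to 794 CPM in WT. Ihh averaged 0.788 ± 0.0440 CPM in Sd/Sd and 3.00 ± 0.363 CPM in WT (log2 fold change -1.93, SE 0.24, adjusted p = 0.0438 in edgeR). Both calls were lost whichever library was left out, so those fits had 0 hindgut genes past the threshold. DESeq2 called 4 members lower, adding the tight-junction gene Cldn6, and the epithelial adhesion gene Epcam. At an unadjusted p under 0.05 in edgeR, 10 members were lower, among them Klf5, Vil1 and 5 claudin genes, and 0 were higher. Of all genes tested, 1.95% were lower at that level and 50.1% had a negative log2 fold change. Cdx2 and Cdh1 each had a log2 fold change of -0.04 (SE 0.43 and 0.09). The 4 positive values were those of Wnt11 (0.30), Gata6 (0.09), Prom1 (0.03) and Trim71 (0.02). For Wnt11 all Sd/Sd libraries lay above all WT libraries, and for 9 members all lay below, against 4.42% of all genes tested.

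Foxa1 and Foxa2 lay below the mean of the hindgut list in every library, on average by more in Sd/Sd. The log2 level of Foxa1 minus the mean log2 level of the tested hindgut genes was -0.94, -0.84 and -2.06 in Sd/Sd replicates 1 to 3, against -0.22, -0.64 and -0.29 in WT replicates 1 to 3. The groups did not overlap (difference -0.90, exact 2-sided permutation p = 0.1, the smallest possible), with Sd/Sd replicate 2 and WT replicate 2 nearest to each other. Without Sd/Sd replicate 3 the difference was -0.50. For Foxa2 the same value was -1.19, -1.78 and -1.90 in Sd/Sd, against -0.95, -1.19 and -1.18 in WT, with Sd/Sd replicate 1 level with WT replicate 2 (difference -0.52, exact 2-sided permutation p = 0.2).

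Notochord and node genes had 1 of 19 tested members past the threshold, Shh, with a median log2 fold change of -0.12 and 15 negative values; the summed level was 852 to 1064 CPM in Sd/Sd, against 902 to 1063 CPM in WT. At an unadjusted p under 0.05 in edgeR 3 of these were lower, Shh, Noto and the BMP antagonist gene Nog. The node signalling gene Nodal was the 1 that was higher. Of all genes tested, 1.95% were lower at that level and 50.1% had a negative log2 fold change. Nodal averaged 0.898 ± 0.191 CPM in Sd/Sd and 0.366 ± 0.179 CPM in WT (SD, n = 3 each), with no overlap between groups (log2 fold change 1.31, SE 0.43, adjusted p = 1.00 in edgeR). Nog had a log2 fold change of -0.58 (SE 0.25). The notochord median was -0.20 without WT replicate 1 and -0.19 without Sd/Sd replicate 2. Floor plate genes had 1 of 13, again Shh, with a median of -0.11, 9 negative values and a summed level of 575 to 799 CPM in Sd/Sd, against 678 to 776 CPM in WT; DESeq2 also called Nkx2-9, a homeobox gene active in ventral neural tube. Nkx2-9 averaged 1.08 ± 0.731 CPM in Sd/Sd and 3.88 ± 0.386 CPM in WT (log2 fold change -1.86, SE 0.47, adjusted p = 1.00 in edgeR). The floor plate median turned to 0.11 without Sd/Sd replicate 3 and 0.01 without WT replicate 1. It was -0.46, -0.28, -0.20 and -0.19 without Sd/Sd replicate 2, Sd/Sd replicate 1, WT replicate 2 and WT replicate 3, -0.32 with limma-voom and -0.30 with the replicate block. The floor plate list score, a mean of centred log2 CPM over members, was -1.26 in Sd/Sd replicate 3, the library with the lowest Foxa1. It was 0.19 and 0.31 in Sd/Sd replicates 1 and 2 and 0.08 to 0.51 in WT. Low scores in Sd/Sd replicate 3 were not particular to floor plate. That library was also the lowest for the lists of somites (-1.95), dorsal neural tube (-1.12), nephric duct (-0.72) and liver genes bound by Foxa factors (-0.87). The same held for visceral yolk sac (-0.41), surface ectoderm (-0.16) and Foxa co-regulators (-0.11). For the hindgut, notochord, foregut and endothelium lists another library was lowest. For hindgut the Sd/Sd libraries scored -0.38 to -0.13, against 0.15 to 0.27 for WT libraries. The notochord scores were -0.23 to -0.09 in Sd/Sd, against 0.13 to 0.21 in WT. The hindgut and notochord lists both hold Shh (log2 fold change -1.49), and the notochord list also holds Noto (-2.79). The part of these tissues in the Foxa levels was not tested.

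**Figure D4:**
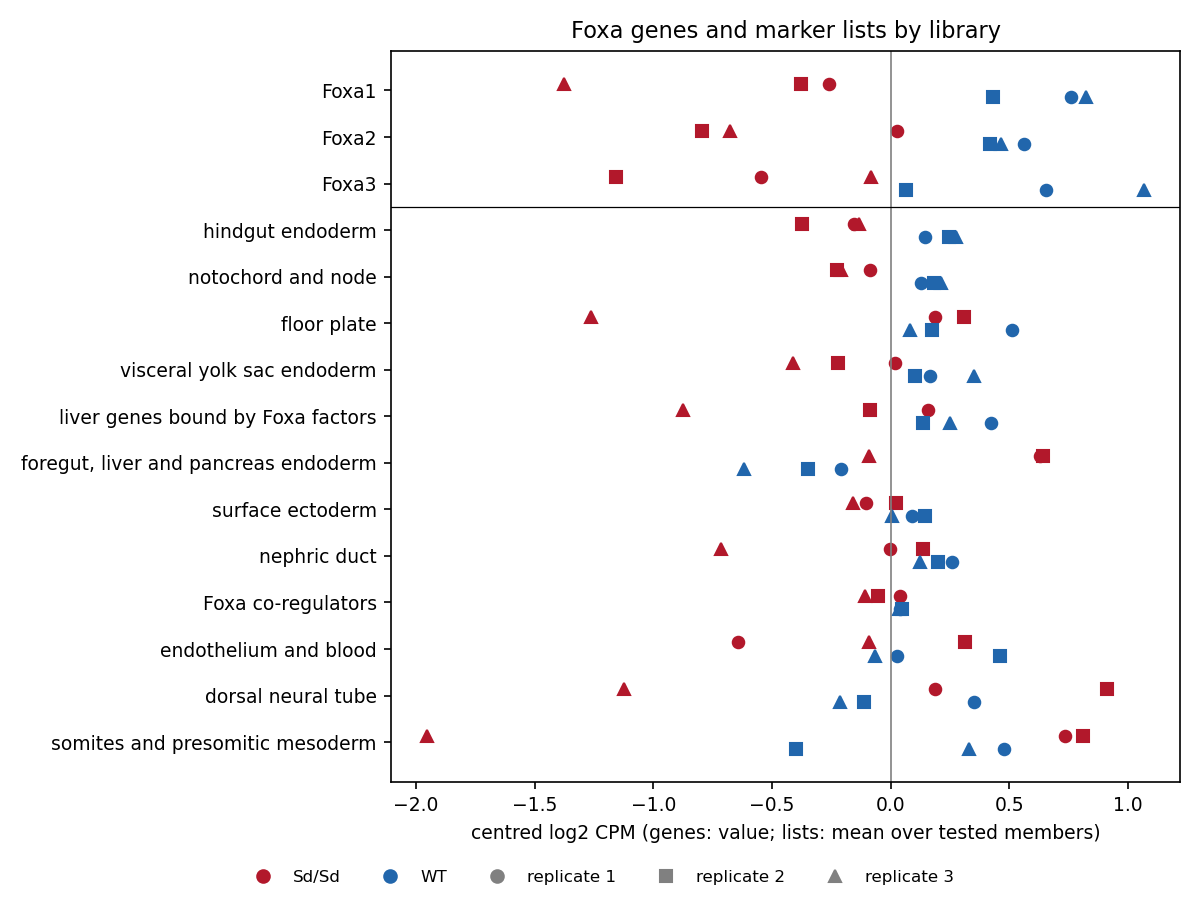
Centred log2 CPM (horizontal axis) of each Foxa gene and mean centred log2 CPM of the tested members of 12 marker lists (rows) in 3 Sd/Sd libraries (red) and 3 WT libraries (blue), with a symbol for each replicate. The groups separate for the Foxa genes, hindgut, notochord and yolk sac, with Sd/Sd lower. The hindgut and notochord lists both hold Shh (log2 fold change -1.49), and the notochord list also holds Noto (-2.79). With Sd/Sd higher, the groups separate for foregut, a list that holds Ptf1a (log2 fold change 8.32) and has a median of -0.16. Sd/Sd replicate 3 lies far left for Foxa1 and for the floor plate (-1.26), dorsal neural tube (-1.12) and somite (-1.95) lists.

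Lists for liver and yolk sac bear on Foxa genes because the genes are active in both tissues. Of 10 tested liver genes known to be bound by Foxa factors 0 passed in edgeR, DESeq2 or limma-voom, and 1 was lower at an unadjusted p under 0.05, with a median log2 fold change of -0.47 (-0.29 without WT replicate 1). The albumin gene Alb, Tat and G6pc, also in that list, had 0 counts in all 6 libraries and were not tested. Of 12 tested visceral yolk sac genes 0 passed in any of the 3 methods. At an unadjusted p under 0.05 in edgeR, 3 were lower and 1 higher, where 1.95% of all genes tested were lower. Log2 fold changes were below 0 for 11 of them, against 50.1% of all genes tested. The median of the yolk sac list was -0.37, with -0.64 without Sd/Sd replicate 1 and -0.60 without a filter on low counts. Its apolipoprotein genes Apob and Apoa1 stood at 0.574 ± 0.195 and 0.139 ± 0.0342 CPM in Sd/Sd and at 1.16 ± 0.255 and 0.341 ± 0.115 CPM in WT. The yolk sac score was -0.41 to 0.02 in the Sd/Sd libraries, against 0.10 to 0.35 in the WT libraries. The summed level of the tested yolk sac genes was 136 to 166 CPM in Sd/Sd, against 159 to 178 CPM in WT. The part of yolk sac or other endoderm in the Foxa values was not tested.

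Foregut, liver and pancreas genes had 1 of 12 tested members past the threshold, Ptf1a, which rose, with a median log2 fold change of -0.16; with the replicate number as a block Cpa1, a pancreatic carboxypeptidase gene, passed too, which makes 2 (adjusted p = 0.0103). The score of this list, which holds Ptf1a, was -0.09 to 0.64 in the Sd/Sd libraries, against -0.62 to -0.21 in the WT libraries. Of its 12 members 7 had negative log2 fold changes, against 50.1% of all genes tested. The list median was 0.08 without Sd/Sd replicate 3. Partners of Foxa proteins, such as Groucho corepressors, Gata factors and Gli factors, had 0 of 21 tested members past the threshold in any of the 3 methods. At an unadjusted p under 0.05 in edgeR, 1 was lower and 1 higher, where 1.95% of all genes tested were lower. The median of the partner list was 0.02 (-0.03 without Sd/Sd replicate 1). Gli3, a hedgehog transcription factor gene, averaged 142 ± 8.86 CPM in Sd/Sd and 123 ± 10.3 CPM in WT, and Aes, a short Groucho family gene, 34.6 ± 6.14 CPM in Sd/Sd and 47.0 ± 9.26 CPM in WT.

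Other cell types that a tailbud can hold had 0 members past the threshold in edgeR, DESeq2 or limma-voom. Surface ectoderm had 11 of 15 tested members with a negative log2 fold change (median -0.10), with the smallest p for the epithelial splicing genes Esrp1 (-0.30) and Esrp2 (-0.41). Nephric duct had 9 of 10 negative (median -0.37), with the smallest p for Pax2 (-0.54) and Ret (-0.39). Endothelium and blood had 13 of 14 negative (median -0.21), with the smallest p for Sox18 (-0.26) and Emcn (-0.30). Somites had 4 of 15 negative (median 0.19), with the smallest p for the Notch modifier gene Lfng (0.41) and Tbx6 (0.19), and dorsal neural tube 3 of 11 (median 0.16), with the smallest p for Msx1 (0.16) and Zic1 (1.89, SE 1.62). At an unadjusted p under 0.05 in edgeR, 2 surface ectoderm, 3 nephric duct and 1 endothelial gene were lower. At that level 1 somite gene was higher, with 0 genes in dorsal neural tube. Of all genes tested, 1.95% were lower at that level and 50.1% had a negative log2 fold change. The medians of several of these lists rested on single libraries. The somite median was -0.12 without Sd/Sd replicate 2, 0.50 without Sd/Sd replicate 3, 0.01 without Sd/Sd replicate 1, 0.02 without WT replicate 2, -0.12 with limma-voom and -0.10 with the replicate block. The dorsal neural tube median was -0.13 without Sd/Sd replicate 2, 0.06 without WT replicate 2, 0.05 without a filter on low counts, -0.02 with limma-voom and -0.01 with the replicate block. The endothelium and blood median was 0.09 without Sd/Sd replicate 1 and 0.01 without WT replicate 2. The surface ectoderm median was -0.01 without Sd/Sd replicate 1 and -0.16, -0.16 and -0.18 without Sd/Sd replicates 2 and 3 and WT replicate 3.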

How the data were processed

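Polyadenylated RNA was measured in 3 Sd/Sd and 3 WT tailbud libraries. The authors deposited raw counts per gene, 1 file per library. The submitters' processing notes name build mm9 and the tools DESeq2, SAMtools, STAR 2.5.2b, CASAVA and bcl2fastq 2.17.1.14. Which program counted reads, with which annotation and whether by strand, was not given in the sources used here. Counts of overlapping genes are therefore uncertain. Symbols for 32620 of 37310 identifiers and exon lengths came from GENCODE M21 (GRCm38), and promoters from RefSeq on GRCm38.p6. All identifiers were kept in library totals of 41788978 to 62296689 counts.

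Genes were kept by filterByExpr (minimum count 10, total 15). Sd/Sd was compared with WT by edgeR 4.0.16 in R 4.3.3 (TMM, robust quasi-likelihood test, 2-sided, Benjamini-Hochberg over 15471 genes, threshold 0.05). On simulated counts, only the recovery of planted median log2 fold changes was required, with no condition on true or false calls. The SE is the log2 fold change divided by the square root of F. List scores used log2 CPM with a prior count of 2, and ratios within a library log2 CPM with a pseudocount of 0.1, with exact permutation tests. Libraries of the same number deviated together (correlations over genes of 0.194, 0.144 and 0.275 for numbers 1, 2 and 3), but Sd/Sd replicate 2 and WT replicate 1, of different numbers, also did (0.182). A fit with replicate number as a block was made as an alternative; the pairing is a hint from the data, not the labels. No pair of libraries matched within sampling noise.

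Named genes were the 3 members, Shh, T, Noto and Ptf1a, the 5 genes nearest in profile to each member, forkhead genes with an unadjusted p under 0.05, and from each list the called members or, where none was called, the 2 of smallest p. Cldn6, Epcam, Nkx2-9, Klf5, Vil1, Cdx2, Cdh1, Wnt11, Gata6, Prom1, Trim71, Cpa1, Nodal, Nog, Alb, Tat and G6pc and the neighbouring genes lie outside that rule. The genes other than neighbours were chosen after their values were seen. A gene that the rule selects is not reported here. The members and lists were chosen with earlier results of these data known. Alternatives were DESeq2 1.42.0, limma-voom (limma 3.58.1), other filters, upper-quartile scaling, no robust option, the block and leaving out each library.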

Additional observations from a re-analysis of the deposited data

How the results depend on the processing

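The direction of Foxa1, Foxa2 and Foxa3 was the same in all 39 refits, and DESeq2 alone put one of them past the threshold, Foxa1 (log2 fold change -1.28, adjusted p = 8.21e-04), which makes 1 Foxa gene called in place of 0. The number of genes called lower, 3 with edgeR, was 15 with DESeq2, 5 without a filter, and 0 with limma-voom or without the robust option (0 to 1 when a library was left out). The number called higher, 6, was 19 with DESeq2 and 3 with limma-voom or without the robust option (2 to 5 when a library was left out). With DESeq2, 4 hindgut and 2 floor plate genes passed. Limma-voom and edgeR without the robust option gave 0 in the notochord, floor plate and hindgut lists; leaving out a library gave 0 to 1 in the notochord list, 0 in the floor plate list and 0 in the hindgut list. The replicate block called 2 foregut genes in place of 1 and changed no other call of a Foxa gene or list count by over 1.5 times. The Foxa3 to Foxa1 log2 ratio difference, 0.21, ranged from -0.37 to 0.61 when a library was left out and was 0.21 between same-number pairs (exact sign-flip permutation p = 1). With a pseudocount of 1 CPM in place of 0.1 CPM, that difference was 0.58. The Foxa1 to Foxa2 log2 ratio difference, -0.38, ranged from -0.68 to -0.13 when a library was left out. Ratios other than Foxa3 to Foxa1 kept their direction in every alternative run. The cause of the differences between methods was not tested. Depth limits Foxa3 most, at 26 to 88 counts per library.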
